A study of Caenorhabditis elegans with 2 samples.

Results

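The sites described here are places in the nuclear genome of Caenorhabditis elegans where chromatin recovered with tagged HRDE-1 gave a candidate site at an annotated pseudogene. A site was taken where its summit, the position of highest signal, lay inside a pseudogene or within 500 bp of a pseudogene start. Sites within 500 bp of the start of a tRNA, snoRNA or snRNA gene were left out. The rule found 713 sites, among 30000 candidate sites of the pooled list, of which 29977 were nuclear. They lay at 485 of the 2128 annotated pseudogenes.

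The samples were whole hermaphrodite young adults of strain YL557, a transgenic line that stably carries HRDE-1 (WAGO-9) fused to GFP-FLAG at its C-terminus, collected 48 hours after starved L1 larvae were let grow. The labels do not say whether untagged hrde-1 remained in the line or from how many insertions it descends. Chromatin was sheared by sonication and immunoprecipitated with anti-GFP, per the sample description (the antibody field reads hrde-1). There was 1 group with 2 biological replicates, so nothing below compares conditions, and a site in whole animals cannot be assigned to a tissue.

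A pseudogene is a stretch of DNA that resembles a working gene but carries damage, such as stop codons, frameshifts or missing parts, and is annotated as making no functional protein or RNA. In nematodes many pseudogenes lie on chromosome arms among the large, fast-changing gene families they came from, such as chemoreceptors and F-box genes. HRDE-1 is a nuclear Argonaute of the germ line that carries small RNAs antisense to transcripts, and it is known for silencing that is inherited over generations. Pseudogenes are among the known sources of such small RNAs in the worm.

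Each site has a signal, the score that the authors' caller gave it on a scale the sources do not state, and it is used here to rank sites within 1 list. The authors also deposited 1341 sites kept by their irreproducible discovery rate (IDR), a measure of how well sites rank alike in replicates. That list holds the pooled candidates of highest signal. Candidate lists of replicate 1 (24269 sites) and replicate 2 (30000 sites) were used to look up each site, with a summit within 200 bp taken as the same site. Where several summits were that close, the strongest gave the value, so neighbouring sites can share a replicate summit. The lists give no read counts, so depth is unknown. Intervals are exact Clopper-Pearson 95% intervals and cover counting error only. Sites close to each other are not independent: 201 of the 713 sites had another within 500 bp, and they formed 611 runs.

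The strongest candidates were few among them: of the 713 sites, 18 were in the IDR list (2.52%, interval 1.50 to 3.96%), against 4.40% of all nuclear candidates and 3.40% of nuclear candidates over 500 bp from small RNA gene starts. The interval of the sites at pseudogenes held 3.40% and lay below 4.40%. Sequences of 4 short pseudogenes at these 18 sites are shown, the RNA-like ones with their closest working RNA gene, because they let a reader see what kinds of relic lie at or beside a summit. All are from the RefSeq assembly WBcel235 (ce11), written 5′ to 3′ along the strand of the gene. In the tRNA-like sequences capitals mark a match to the B box GGTTCNANNCC, the inner promoter element of tRNA genes, searched on the strand of the gene.

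C52E12.t1, a tRNA-type pseudogene in the gene unc-104 (chrII:7001627-7001698, plus strand): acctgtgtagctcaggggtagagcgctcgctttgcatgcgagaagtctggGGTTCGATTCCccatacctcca
B0491.t1, its closest tRNA gene (chrII:11334508-11334579, plus strand): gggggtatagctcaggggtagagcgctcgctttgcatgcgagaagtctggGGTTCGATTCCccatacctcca
Y69A2AR.t3, a tRNA-type pseudogene (chrIV:2664242-2664314, plus strand): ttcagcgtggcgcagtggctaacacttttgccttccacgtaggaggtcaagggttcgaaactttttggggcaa
F21A3.t2, its closest tRNA gene (chrV:15515506-15515578, minus strand): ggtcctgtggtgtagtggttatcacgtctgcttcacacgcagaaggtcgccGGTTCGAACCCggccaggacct

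The first pair matched at 98.5% over 68 bases and both sequences hold the full B box. The second pair matched at 73.6% over 53 bases, and the pseudogene has no full match to the B box in these letters.

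A different kind of RNA relic lay beside another of the 18 sites. sls-2.19 resembles the genes for SL2, the short spliced leader RNA that is joined to the messages of downstream genes in worm operons, and capitals mark the bases aligned with its closest such gene, sls-2.12.

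sls-2.19 (chrIV:5264907-5265021, plus strand): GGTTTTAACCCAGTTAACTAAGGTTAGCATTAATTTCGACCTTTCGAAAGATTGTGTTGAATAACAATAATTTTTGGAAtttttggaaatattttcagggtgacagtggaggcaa
sls-2.12 (chrIV:5261913-5262022, plus strand): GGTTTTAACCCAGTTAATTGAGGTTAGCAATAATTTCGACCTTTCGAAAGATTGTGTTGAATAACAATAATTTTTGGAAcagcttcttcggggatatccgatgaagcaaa

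The aligned stretch was 79 bases at 96.2% identity, and past it the sequences have nothing aligned. The site itself did not lie in these bases: its summit was 296 bp from the start of sls-2.19, past its end, and 389 bp upstream of msp-52, a pseudogene of the major sperm proteins, which form the cytoskeleton of worm sperm. Its signal was 95.1 in the pooled list, 18.0 in replicate 1 and 82.4 in replicate 2.

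Y73B6BL.45, with 2 IDR sites, is 165 bp long and its closest coding match was afmd-2, at 74.1% over 54 amino acids. Its whole sequence is followed by the 101 bases around its strongest summit on the plus strand, in which capitals mark the bases inside the pseudogene.

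Y73B6BL.45 (chrIV:6421036-6421200, minus strand): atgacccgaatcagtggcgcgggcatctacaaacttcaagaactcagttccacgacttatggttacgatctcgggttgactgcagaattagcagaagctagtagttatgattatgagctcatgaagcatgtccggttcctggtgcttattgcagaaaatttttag
Y73B6BL.45 summit (chrIV:6421148-6421248, plus strand): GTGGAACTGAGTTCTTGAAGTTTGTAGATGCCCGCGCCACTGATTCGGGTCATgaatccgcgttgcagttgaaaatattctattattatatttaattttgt

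The summit lay 2 bp inside the annotated start of this fragment, where pseudogene sequence gives way to the AT-rich DNA between genes. It had a signal of 154.8 in the pooled list, 68.4 in replicate 1 and 97.8 in replicate 2, the highest replicate 1 value among the 312 sites found in that list. It also lay 387 bp upstream of the start of puf-11, a Pumilio family RNA-binding protein of the germ line, and 300 bp past the 3′ end of htp-2, which encodes a protein of the meiotic chromosome axis. A second summit, 206 bp upstream of the fragment and 179 bp upstream of puf-11, had a signal of 79.99 in the pooled list and 29.7 in replicate 1, and shared the replicate 2 summit of the first. A distance alone cannot tell which of the 3 genes such a site belongs to.

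The strongest site of all lay at F43G6.3 and had the same setting. Its summit, at position 11782660 of chromosome II (ce11), was 327 bp upstream of the pseudogene, 27 bp upstream of the coding gene F43G6.16 and 264 bp past the 3′ end of dna-2, a helicase and nuclease of DNA replication. The signal was 161.3 in the pooled list, 56.7 in replicate 1 and 112 in replicate 2. F43G6.3 is 1100 bp long and its closest coding match, T19H12.2, was 60.4% identical over 169 amino acids.

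Most of the strong sites had a coding gene close by. Of the 18 IDR sites, 12 lay within 500 bp of a coding gene start or 3′ end: 9 at a 3′ end and 6 at a start. Of all 986 IDR candidates away from small RNA genes, 887 lay within 500 bp of a coding start or 3′ end. A coding 3′ end was that close for 742 (75.25%) and a coding start for 451 (45.74%). Neither position, nor the 2 together, was therefore more frequent at the 18 sites than at strong candidates in general. cest-15, a pseudogene of the carboxylesterases, had its site 21 bp past the 3′ end of rsp-1, an SR protein of RNA splicing, with signals of 116.5, 34.4 and 85.8 in the pooled, replicate 1 and replicate 2 lists. R09B3.6 had its site 114 bp past exo-3, an endonuclease of DNA base repair, with signals of 112.6, 31.1 and 78.7 in the same lists. Both summits lay in an exon in the last tercile of the pseudogene, so the end of the pseudogene and that of the coding gene fell in 1 window.

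The site at srx-71, a chemoreceptor pseudogene, lay 64 bp past the 3′ end of duo-1 and 128 bp before the start of the pseudogene. Its signals were 92.7 in the pooled list, 40.5 in replicate 1 and 57.5 in replicate 2. At fbxa-217, an F-box pseudogene, the summit lay 57 bp past the 3′ end of its coding relative fbxa-216 and 367 bp before the pseudogene. It had signals of 77.2, 25.8 and 53.8 in the pooled, replicate 1 and replicate 2 lists. A second site, 167 bp before the pseudogene and with 63.9 in the pooled list, shared these replicate summits.

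klp-10 was the pseudogene nearest to a working kinesin in sequence, with 97.4% identity over 274 amino acids to klp-18, a kinesin of the oocyte meiotic spindle. Its strongest site was 297 bp upstream of the pseudogene and 413 bp upstream of sgo-1, which encodes shugoshin, a protein of chromosome cohesion. The signal was 118.8 in the pooled list, 21.6 in replicate 1 and 90.2 in replicate 2. The 3 weaker sites of klp-10 had 14.4, 18.9 and 26.4.

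Over all 713 sites the share in the IDR list differed with the distance to coding gene ends. Among the 181 sites within 500 bp of a coding start or 3′ end, 12 were IDR sites (6.63%, interval 3.47 to 11.3%), against 6.99% of all nuclear candidates in that position and away from small RNA genes. Among the 532 sites away from coding starts and ends, 6 were IDR sites (1.13%, interval 0.415 to 2.44%), against 0.608% of candidates so placed. Those candidates lay inside a coding gene in 78.1% of cases, against 11.8% of the 532 sites. For sites outside coding genes as well, the order was reversed: 5 of 469 were IDR sites (1.07%, interval 0.347 to 2.47%), against 1.54% of candidates. Within each position the interval of the sites at pseudogenes held the value of all candidates. The sites at pseudogenes were less often in the first position: 18.4% lay at a coding 3′ end and 8.84% at a coding start, against 30.2% and 26.1% of the other candidates. Of them 14.5% lay inside a coding gene, against 72.4% of the others.

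**Figure D1:**
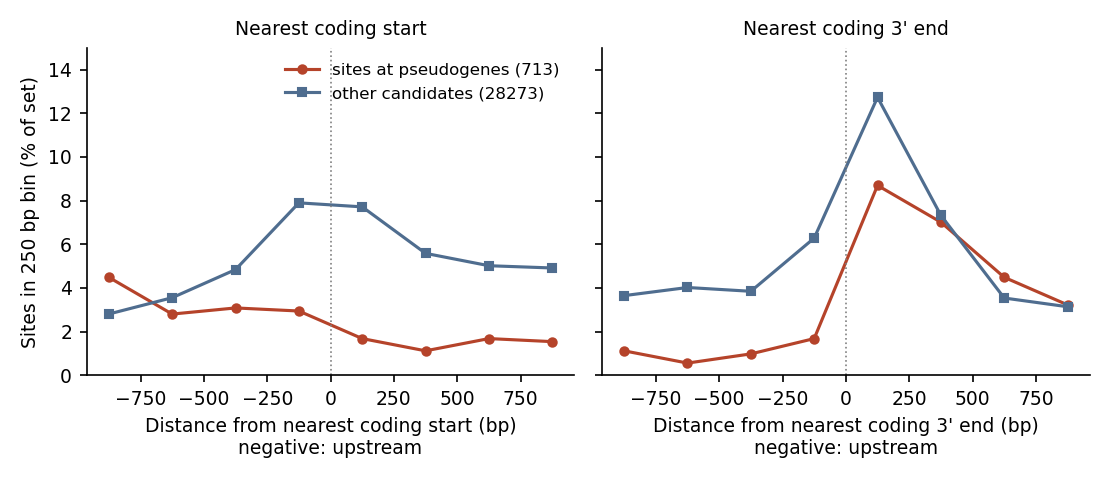
Share of sites (%, y axis) in 250 bp bins of distance from the nearest coding start (left) and the nearest coding 3′ end (right), for the 713 sites at pseudogenes (circles) and 28273 other nuclear candidates away from small RNA genes (squares). Both sets were highest just past coding 3′ ends, with 8.70% of sites at pseudogenes and 12.7% of other candidates in the first 250 bp.

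The side of the 3′ end was uneven as well. Of the sites nearest to a coding 3′ end, 62 lay up to 250 bp downstream of it and 50 lay 250 to 500 bp downstream, against 12 and 7 in the same bins upstream. The upstream bins lie inside coding genes, where few of the sites at pseudogenes were. With the sites cut at the quartiles of signal, 29.2% were at a coding 3′ end above the upper quartile and 12.3% below the lower one. In the other candidates over the same signal ranges the shares were 47.1% and 19.95%.

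Not every strong site had a coding gene end beside it. The 6 IDR sites over 500 bp from every coding start and 3′ end were at srw-45, sls-2.19 with msp-52, T26C11.3, C52E12.t1, ZK637.18 and pqbp-1.2. Of the 986 IDR candidates away from small RNA genes, 99 were so placed. T26C11.3, with its summit 528 bp past a coding 3′ end, and pqbp-1.2, 565 bp upstream of the start of rps-24, lay just beyond the limit. srw-45, a chemoreceptor pseudogene of 8325 bp on the right arm of chromosome V, had its summit in an intron, 3831 bp from the nearest coding 3′ end. Its signals were 101.4 in the pooled list, 35.9 in replicate 1 and 67.4 in replicate 2. The 301 bp around it had a copy of 96.0% identity elsewhere in the genome, so reads there may not be assigned to this place alone.

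ZK637.18, a fragment of 141 bp in the centre of chromosome III, and T26C11.3, of 4049 bp on chromosome X, had no coding match by protein search. ZK637.18 had a summit 33 bp upstream of its start, with signals of 90.7, 15.8 and 74.8 in the pooled, replicate 1 and replicate 2 lists. T26C11.3 had one in an intron, 545 bp from its start, with 93.75, 20.5 and 71.8 in the same lists. It was the single IDR site at a pseudogene on chromosome X.

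pqbp-1.2 was the exception in replicate support. Its site had 78.1 in the pooled list and 26.1 in replicate 1, while the nearest replicate 2 summit was 238 bp away, beyond the limit used. Its summit base was repeat-masked, and its 301 bp window had 14 copies of at least 90% identity. The remaining 17 IDR sites had a summit in both replicate lists.

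**Figure D2:**
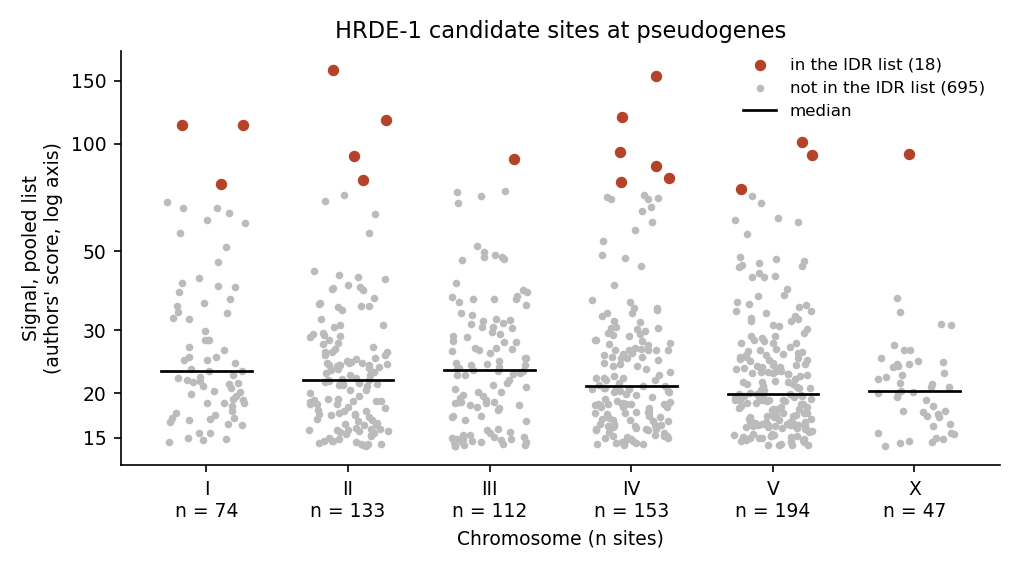
Signal of each of the 713 sites in the pooled list (authors' score, log axis) by chromosome, with IDR sites as large points and the median as a line. Medians lay between 19.9 on chromosome V and 23.2 on chromosome III, and the 18 IDR sites lay at 74.5 and above.

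By signal the sites formed a continuous range without a separate strong class. The median was 21.4 and the quartiles 17.2 and 28.7, against a median of 22.8 for all nuclear candidates away from small RNA genes. The sites just inside the IDR list were M162.13 with 74.5 and fbxa-217 with 77.2, and those just outside were K11H3.4 with 73.8 and C18H2.4 with 73.2. These 4 values are close, so the edge of the list separates sites of nearly equal signal. C18H2.4, whose summit lay 86 bp past the 3′ end of lin-13, a zinc-finger protein, had 33.6 in replicate 1 and 39.8 in replicate 2.

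Further sites near this edge had mixed settings. At F14E5.7, 209 bp long, the summit lay just past the end of the pseudogene, 95 bp past the 3′ end of fdgt-2 and 177 bp upstream of F14E5.8, with 78.9, 38.5 and 55.4 in the pooled, replicate 1 and replicate 2 lists. At C01B9.5 it lay 174 bp upstream of the pseudogene and inside a coding gene, with 71.8, 17.4 and 52.9 in the same lists. At Y54G2A.20, in an exon of the middle tercile and also inside a coding gene, the signals were 70.9, 29.4 and 56.1 in these lists. Its replicate 1 summit was shared with a second site of this pseudogene, with 70.2 in the pooled list. The sites at C01B9.5 and Y54G2A.20 were outside the IDR list.

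In the candidate lists of the single replicates, 312 of the 713 sites had a summit in replicate 1, 529 in replicate 2 and 213 in both (29.9%), and 85 had none in either. Of all nuclear candidates away from small RNA genes, 32.9% had a summit in both. Support by both replicates grew with signal, at 4.47%, 10.1%, 36.0% and 69.1% in the 4 signal groups cut at the quartiles, lowest signal first. The other candidates over the same signal ranges rose alike, at 5.09%, 12.2%, 30.2% and 69.4%. The pooled signal comes from the reads of both replicates, so it is not independent of their lists. Across the 213 sites the values of the replicates had a Spearman correlation of 0.51, against 0.45 over 9548 candidates, given as a description because sites of 1 pair of libraries are its points.

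**Figure D3:**
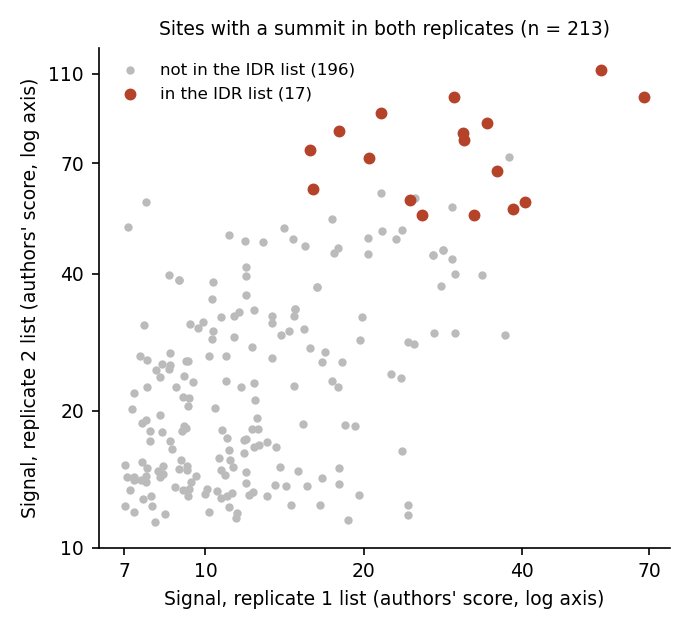
Signal in the replicate 2 list against signal in the replicate 1 list (authors' scores, log axes) for the 213 sites at pseudogenes with a summit in both. The 17 IDR sites shown lay between 15.8 and 68.4 in replicate 1 and between 53.8 and 112 in replicate 2.

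Counted by gene, 22.8% of pseudogenes (interval 21.0 to 24.6%) had a site, against 49.7% of protein-coding genes by the same rule. An IDR site was found at 18 pseudogenes (0.846%), against 4.04% of coding genes. Both gaps differed with gene length. Up to 250 bp the shares with a site were 27.8% of pseudogenes and 28.2% of coding genes. Without the 209 tRNA-type pseudogenes, all of which are this short, the pseudogene share in this class was 18.0% of 122 (interval 11.7 to 26.0%). In each longer class the pseudogenes were lower: 17.3% against 33.9% from 250 to 1000 bp, 18.2% against 40.7% to 2000 bp, 28.0% against 53.3% to 4000 bp, and 46.6% against 71.3% above 4000 bp. For IDR sites the order was reversed up to 250 bp, with 7 of 331 pseudogenes (2.12%) against 3 of 301 coding genes (0.997%). In every longer class the pseudogenes had the lower IDR share, for example 0.188% against 3.13% from 250 to 1000 bp and 2.29% against 5.38% above 4000 bp. These shares rest on few IDR sites. Per megabase of gene body there were 148.9 sites in pseudogenes, 327.5 in coding genes and 289.1 in the nuclear genome as a whole.

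**Figure D4:**
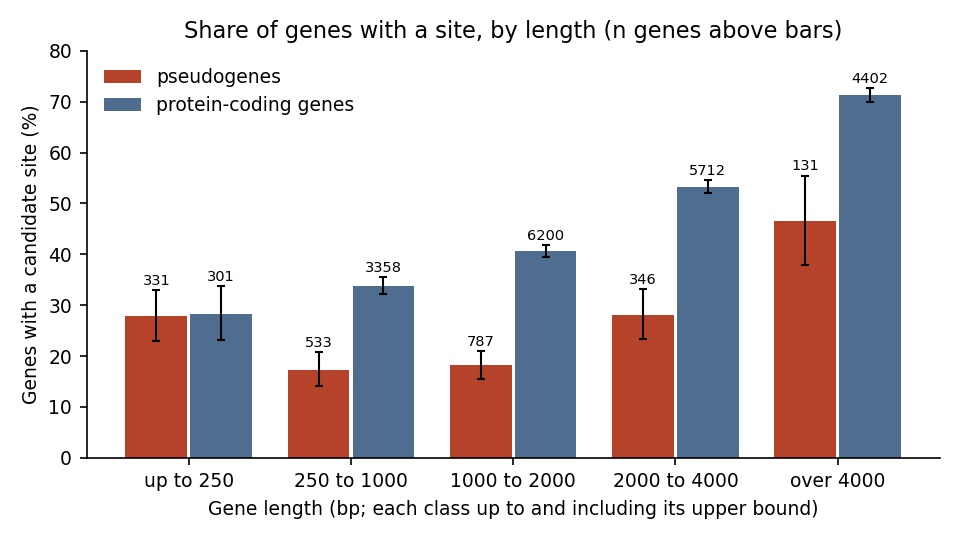
Share of genes with a candidate site (%, bars) by gene length, for pseudogenes (left bar of each pair) and protein-coding genes (right bar). Error bars are exact 95% intervals and numbers above the bars count genes. The intervals overlapped up to 250 bp and were apart in every longer class.

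Within the pseudogenes, summits fell over the whole length. There were 166 in the first tercile, 143 in the middle and 176 in the last, counting each site once per pseudogene, and a further 221 upstream of the start and 38 just past the end of a short one. None of the summits in the middle tercile was an IDR site, against 3 in the first, 5 in the last, 8 upstream and 3 just past the end. Here too a site at several pseudogenes counts at each. Over all sites the share in the IDR list was 2.52%, so few fall in any part, and these counts do not set the parts apart. Exons held 290 of the summits inside pseudogenes and introns 195, counts that are not set against the length of exons and introns. For sites inside a pseudogene the summit base was repeat-masked in 20.7%, and the median GC content around it was 39.5%. For those only near a start the values were 38.9% and 34.9%, and for all nuclear candidates away from small RNA genes 33.9% and 36.5%.

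The chromosomes differed in how often a pseudogene had a site. On chromosome III, 70 of 180 pseudogenes had one (38.9%), and on chromosome V 140 of 867 (16.2%). Chromosome V holds 40.7% of all pseudogenes but 27.2% of the sites. Chromosomes IV, I and II lay between them with 27.8%, 25.5% and 25.4%, and X had 20.2%. Coding genes followed a similar order, with 68.5% on III, 66.4% on I and 34.2% on V, so on each chromosome the pseudogenes were below the coding genes.

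Arms here are the outer terciles of each autosome by length. They held 72.1% of the sites and 73.9% of the pseudogenes, against 57.3% of the candidates away from small RNA genes. The IDR sites were split differently: 9 of 514 sites on arms (1.75%, interval 0.804 to 3.30%) and 8 of 152 in centres (5.26%, interval 2.30 to 10.1%). For the candidates the shares were 3.21% on arms and 4.43% in centres. Centres also held more sites at coding 3′ ends, 28.9% of sites there against 16.9% on arms.

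By name, the largest group with a known origin was the tRNA-type pseudogenes, short sequences that resemble tRNA genes. Of these 209, 70 had a site (33.5%), with a median signal of 23.4 and IDR sites at C52E12.t1 and Y69A2AR.t3. Working tRNA genes, which this selection leaves out, stood far higher when all nuclear candidates were used: 521 of 612 had a site (85.1%) and 232 an IDR site, against 76 and 5 of the 209 tRNA-type pseudogenes on the same count. Of the 70 sites, 11 summits lay inside the tRNA-like sequence itself and the others in the 500 bp on either side.

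The site at C52E12.t1 had its summit 19 bp into the pseudogene, with signals of 92.2 in the pooled list, 32.5 in replicate 1 and 53.9 in replicate 2. At Y69A2AR.t3 the summit was 53 bp into the pseudogene and 292 bp from the start of the coding gene Y69A2AR.31, with 86.5, 24.5 and 58.1 in the same lists. So 1 of the strongest relics kept a full B box and the other did not. Of all tRNA-type pseudogenes with a site, 64 of 70 held the motif (91.4%), against 89 of 139 without a site (64.0%) and 82.2% of working tRNA genes. These are counts of letters and say nothing on whether a factor binds there.

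Chemoreceptor pseudogenes were the least often marked of the large groups. They derive from the worm's big families of G protein-coupled receptors of sensory neurons. Of 323, 38 had a site (11.8%, interval 8.46 to 15.8%), against 17.1% of 1371 coding chemoreceptor genes. Their 55 sites had a median signal of 19.4. After srw-45 and srx-71, the strongest was at srb-7, with 71.4 in the pooled list, 28.3 in replicate 1 and 45.1 in replicate 2, 542 bp past the 3′ end of the ribosomal protein gene rps-14.

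The fbxa pseudogenes, relics of F-box proteins that link targets to a ubiquitin ligase, had a site more often than the chemoreceptor pseudogenes. Of 52 fbxa pseudogenes, 16 had a site (30.8%, interval 18.7 to 45.1%), against 22.4% of 170 coding fbxa genes. The interval held this value and the 22.8% of all pseudogenes, so fbxa is not set apart from either. The 25 fbxa sites had a median signal of 32.3. Among related names, the 9 fbxb, 8 fbxc and 12 math pseudogenes had no site, and the 7 bath pseudogenes had 4 sites. A share of 0 of 9 has an upper bound of 33.6%, so these groups are too small to set apart from fbxa. Over the fbxa, fbxb and fbxc pseudogenes, 16 of 69 had a site (23.2%, interval 13.9 to 34.9%). After fbxa-217, the fbxa site of highest signal was at fbxa-207, with 71.5 in the pooled list, 25.1 in replicate 1 and 58.8 in replicate 2, 183 bp past the 3′ end of Y102A5C.2.

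**Figure D5:**
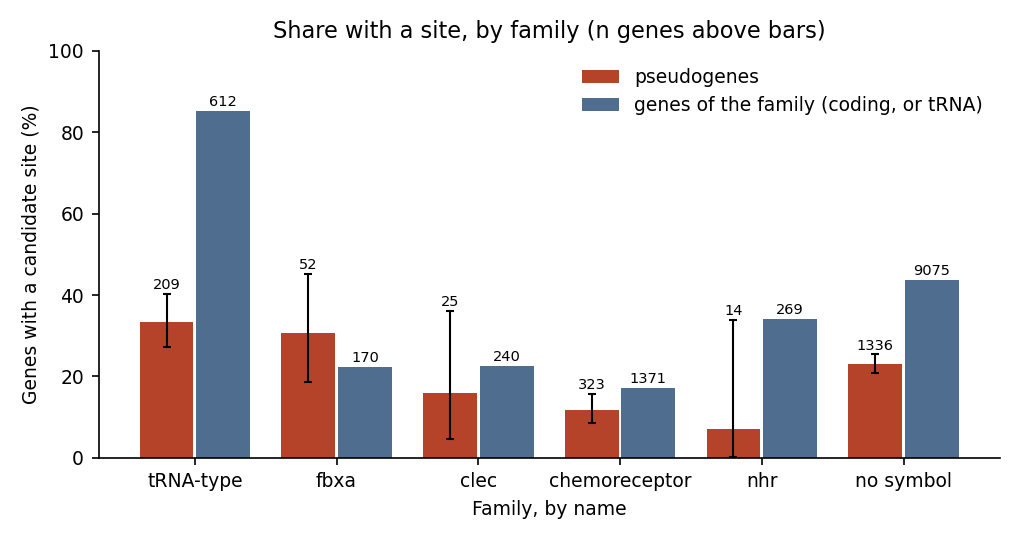
Share of pseudogenes with a candidate site (%, left bars, with exact 95% intervals) by name group, beside the genes of the same family (right bars: coding genes, or tRNA genes with all nuclear candidates). Numbers above the bars count genes. The tRNA-type pair was furthest apart, with 33.5% of pseudogenes and 85.1% of tRNA genes.

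Several pseudogenes carried a series of sites. Of the 485 with a site, 323 had 1, 105 had 2 and 57 had 3 or more. Y111B2A.25 on chromosome III, 8562 bp long, had the most, with 7 sites of 14.3 to 32.4, of which 1 was in both replicate lists. Y48A6C.2, with a stretch of 34 amino acids at 94.1% identity to tra-1, the transcription factor at the end of the sex determination pathway, had 6 sites of 18.8 to 49.9. Y53G8B.3 had 6 sites of 15.9 to 68.0, Y57A10A.1 had 6 of 17.6 to 29.1, and F59A7.8 had 5 of 16.2 to 61.3.

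wago-2 had the highest signals among these. It is a relic of an Argonaute gene in the centre of chromosome I, 88.9% identical over 416 amino acids to wago-1, an Argonaute of the same branch as HRDE-1 that binds the secondary small RNAs of the germ line. Of its 5 sites, the 3 inside the gene had signals of 28.2, 60.0 and 113.2 in the pooled list, in order along it. The others, 51.2 and 16.8, lay 356 and 157 bp upstream of its start, and 136 and 335 bp upstream of the coding gene zhp-1, a meiotic RING-finger protein. All 5 had a summit in both replicate lists, although the upstream pair shared the same replicate summits. The site of highest signal had 31.0 in replicate 1 and 81.6 in replicate 2 and lay in an exon of the last tercile, 404 bp past the 3′ end of tent-5, a cytoplasmic poly(A) polymerase.

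Pseudogenes whose closest coding match is annotated as an Argonaute, Piwi or PAZ domain protein were then looked up, after the values of wago-2 were seen. Of these 9, 6 had a site, wago-2 among them. Over all pseudogenes the share was 22.8%, with 28.0% from 2000 to 4000 bp and 46.6% above 4000 bp. wago-2, C14B1.7 and C06A1.4 are long, at 4166, 3694 and 3352 bp. The group was chosen for wago-2, so its count cannot be read as a preference. C14B1.7, 73.2% identical to hrde-1 over 366 amino acids, had 4 sites on chromosome III with signals of 28.0, 47.1, 47.4 and 48.1, and all 4 had a summit in both replicate lists. C06A1.4, 74.4% identical over 563 amino acids to wago-4, another Argonaute of the germ line, had 4 sites with 17.96, 19.0, 31.1 and 39.1, of which 3 were in both lists.

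The other such sites were weaker or without support in replicate 1. prg-2, 82.9% identical over 222 amino acids to prg-1, the Piwi protein that carries piRNAs, had 4 sites with 18.6, 26.5, 29.3 and 33.5, each with a summit in replicate 2 and none in replicate 1. wago-11, 47.6% identical over 334 amino acids to hrde-1, had 2 sites with 14.7 and 26.1, and H10D12.2, closest to sago-1, had 1 with 18.3. Apart from the strongest site of wago-2, none of the sites at these 6 pseudogenes was in the IDR list.

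Beyond named families, the closest coding relative of each pseudogene was sought by protein comparison. Of pseudogenes with a site 66.2% had one, against 76.1% of pseudogenes without, and the relative lay within 50 kb in 29.3% and 42.6% of these. The relative itself had a site in 49.5% of cases, against 27.4% for pseudogenes without a site. Of all protein-coding genes 49.7% had a site, so the relatives of pseudogenes with a site were near that share. The relatives of pseudogenes without one were below it. Counted by pseudogenes with a site, the most frequent relative was lpd-6, a Brix domain protein gene: 5 of its 7 pseudogenes had sites, 9 in all, although F28F8.10 lies within B0391.10 and shares its site. The strongest of these was at K08F11.6, with 71.6 in the pooled list, 23.7 in replicate 1 and 49.8 in replicate 2, in a window with 7 copies of 90% identity or more. Pseudogenes of cars-1, the cysteine tRNA ligase gene, had sites in 4 of 5 cases, 7 sites with signals of at most 35.0.

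Copies elsewhere in the genome may touch some of these values, since reads from one copy can be placed on another where the copies are alike. Copies were sought for the windows of sites at pseudogenes only, so other candidates give no share to compare. A near-identical copy of the whole window existed for 4 of the 713 windows. A copy of at least 90% identity over 150 bp or more existed for 145 of the 713 windows (20.3%), and for 6 of the 18 IDR sites. These 6 were at cest-15, srw-45, sls-2.19 with msp-52, C52E12.t1, pqbp-1.2 and M162.13. Windows with such a copy had a median signal of 20.1, against 21.7 without, and 27.6% of them had a summit in both replicate lists, against 30.5%. Whether reads were filtered for unique placement is not given in the sources used here, and the part of shared reads in the low number of sites at pseudogenes was not tested.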

How the data were processed

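The data were called sites from chromatin immunoprecipitation of tagged HRDE-1 in 1 group of 2 biological replicates. Candidate lists for each replicate and for the pooled reads, and the IDR list, were deposited by the authors on build ce11, with a score per site that their caller computed against a control, per the file headers and the deposited notes. What scale the deposited score has, which aligner, caller and IDR limit were used and how reads were filtered is not given in the sources used here, and depth per sample is unknown. Lists on ce10 and the control were not used here. No test was run, because 1 group allows no comparison over samples, and sites and genes are not replicates.

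Summits (positions from 1) were set against Ensembl release 115 genes of WBcel235, with names from RefSeq (all 2128 pseudogenes matched). Families were taken from gene names. Pseudogenes were compared with translated coding genes (blastx, e-value at most 1e-10) and with structural RNA genes (blastn, e-value at most 0.001), and 301 bp windows with the genome, with BLAST+ 2.17.0. Tables were made in Python 3.11.15 with pandas 2.3.3 and scipy 1.17.1. The functions that select sites were checked on made-up positions with known answers. The members, name groups and comparisons were chosen with earlier results of these data known. Sites were named by rule: the 25 of highest signal, the strongest of each group with 5 or more sites and of each chromosome, the 6 pseudogenes with most sites, and 2 on each side of the edge of the IDR list. The remaining named pseudogenes were chosen after their values were seen. Alternatives were the distance limits, the replicate lists alone, a stricter IDR list and subsets of the sites.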

Additional observations from a re-analysis of the deposited data

How the results depend on the processing

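The number of sites was 567 and 912 with limits of 200 and 1000 bp from the pseudogene start, 479 for summits inside a pseudogene, 726 with sites near small RNA genes kept, and 641 to 721 in the lists of single replicates. The share in the IDR list stayed below 3.40%, the background of the main setting, in these settings apart from the replicate 1 list. There 3.43% of sites were among its 1341 strongest, against 4.53% of its candidates. The range with 1 replicate was 2.36 to 3.43%. With sites near small RNA genes kept the share was 3.03%, against 4.40% of all nuclear candidates. With the strongest site of each pseudogene it was 3.66%, a choice that raises the share by construction. The share was 1.13% without sites at coding starts and 3′ ends, above the 0.608% of candidates so placed. With sites inside coding genes left out too, the share was 1.07%, below the 1.54% of candidates so placed. It was 0.982% for the IDR sites above their median signal, where fewer sites can count by construction. Pseudogenes with a site numbered 311 with summits inside the pseudogene only, and 484 to 497 with 1 replicate. Sites in both replicate lists numbered 87 with summits within 50 bp and 303 within 500 bp. Added after the data were seen, the strongest site of each run gave 2.78%, a choice that also raises the share, and windows without a 90% copy 2.11%. No paired analysis was possible because there was 1 group. With 18 IDR sites, a share over a subset of the sites rests on few sites, and what fewer reads could have shown at weaker pseudogenes is unknown because the lists hold no counts.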

Other observations

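Of the 47 sites at pseudogenes on chromosome X, 0 lay within 500 bp of a coding 3′ end, against 131 of the 666 sites on autosomes. Of the 2558 candidates on X away from small RNA genes, 20.5% did. The 47 sites had 4 at a coding start and 6 inside a coding gene.

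The windows of 301 bp around the strongest sites of F43G6.3 and klp-10 both hold GCGAACGCG on 1 of the strands, a word of 9 letters found by eye and chosen for that reason. It was in 2 of the 713 windows (0.28%) and in 24 of 28273 windows of other candidates (0.085%), of which 4 were IDR sites. It says nothing of a factor.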
